A study of Mus musculus with 6 samples.

Results

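The genes that make cholesterol and those that sense, move and export sterols were followed in whole oviducts of mice lacking 1 functional Wt1 allele. A list of 31 genes was chosen by name and ordered by pathway step, without a cut on measured values. Of these, 28 had at least 1 probe set whose annotation names that gene alone, out of 18193 genes with such a probe set. They were covered by 61 probe sets among 45037. For Acat2, Nr1h2 and Soat1 the annotation used here named no probe set, and they were not analysed here.

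The tested samples were 3 oviduct samples of genotype Wt1 ko/+ (heterozygous), set against 3 of genotype Wt1 +/+ (wild type), with 1 array each. Both genotypes were of the MF1 strain, an outbred stock, and every female had mated with a wild-type male and was sampled at embryonic day 2.5, when embryos are still in the oviduct. The labels do not give the age of the females, how the allele was inactivated, or whether a sample is 1 animal or a pool, so the spread between arrays may be technical in part. Wt1 is a gene for a DNA-binding protein with zinc fingers. The question put to the arrays is which oviductal transcripts differ when 1 of its alleles is lost.

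Cholesterol is built from acetyl groups in the cytosol and endoplasmic reticulum. The mevalonate steps end in farnesyl diphosphate, a branch point to other isoprenoids, and the sterol steps turn it into squalene, lanosterol and cholesterol. When membrane sterol is low, the protein Scap escorts the SREBP factors out of the endoplasmic reticulum, and SREBP-2 then activates nearly every enzyme of the pathway together with its own restraint Insig1. When sterols are plentiful, oxysterols activate the LXR receptors, which induce the efflux pumps Abca1 and Abcg1.

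Levels are given as log2 of the quantile normalised intensity, on which the median of all probe sets was 7.31, and changes as heterozygous minus wild type on that log2 scale. A level cannot be compared between genes on such an array, only between arrays. The ratio of 3' to 5' signal of the Actb control, a measure of RNA integrity, was 1.67 to 2.49 in the heterozygous arrays and 1.74, 2.40 and 5.90 in wild-type replicates 1, 2 and 3. Wild-type replicate 3 thus stood apart. Wt1 itself was at 11.12, 11.27 and 11.79 in heterozygous replicates 1, 2 and 3, against 12.17, 12.06 and 11.67 in wild-type replicates 1, 2 and 3. Heterozygous replicate 3 lay above wild-type replicate 3 and below wild-type replicates 1 and 2, so the groups overlapped. It is not stated where the probe set lies relative to the inactivated part of Wt1. Both points leave this as a weak check of the labels (log2 change -0.57, adjusted p = 0.771 with limma). All 10 oviduct epithelium markers had probe sets brighter than the median one, which is only a rough sign of signal above background and ranks no gene against another, among them Ovgp1, the oviductal glycoprotein, at 14.33 ± 0.02 in heterozygous and 14.27 ± 0.01 in wild-type oviducts (SD, n = 3 each).

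No gene of the pathway passed the test, and mevalonate kinase (Mvk) was the one gene that stood far from the rest. Of the 28 genes measured, 14 were nominally higher and 14 lower in heterozygous oviducts, and the median log2 change was -0.00, beside -0.03 over all 18193 genes. None of the 28 passed an adjusted p of 0.05 in limma, where 0.0165% of all genes did. At an unadjusted p under 0.05 there was 1 of 28, Mvk, or 3.57%, beside 6.44% of all genes. The genotypes did not overlap in 4 of the 28. In 1 of them (3.57%) the heterozygous arrays were all higher, beside 5.0% of all genes, and in 3 (10.7%) they were all lower, beside 6.77% of all genes.

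**Figure D1:**
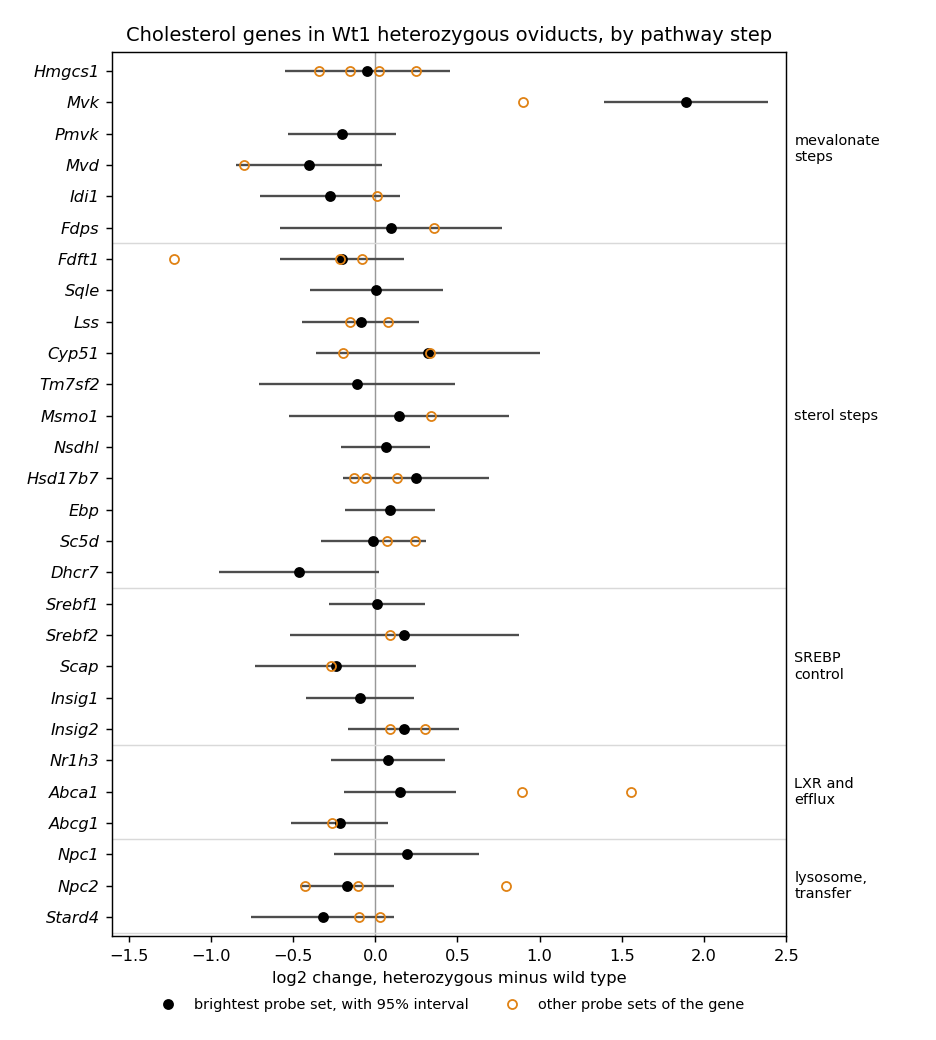
Log2 change (heterozygous minus wild type, x axis) of the 28 measured genes, in pathway order from the top. Black points are the brightest probe set of each gene with its 95% interval from the limma fit over all genes, and open orange circles are its other probe sets. Mvk lies at 1.89, and the other 27 black points lie between -0.46 and 0.32 with intervals that include 0.

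Apart from Mvk, changes ran from -0.46 for Dhcr7 to 0.32 for Cyp51, and all 27 intervals of 95% included 0. For 26 of these 27 the whole interval lay between -1 and 1, which is less than a doubling or halving, and the exception was Cyp51, whose upper bound was 1.00. A p above the threshold does not show that these genes were equal in both genotypes. Log2 changes between -0.5 and 0.5 were also the common case over all genes, at 86.1%.

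**Figure D2:**
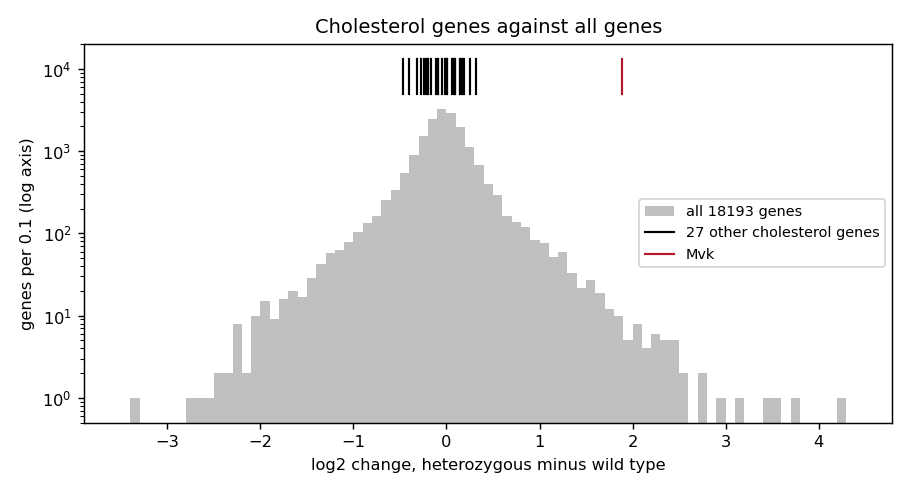
Distribution of log2 changes (x axis) over all 18193 genes, as genes per bin of 0.1 on a log axis (grey). Tick marks above show the 27 other cholesterol genes (black), which sit within the bulk between -0.46 and 0.32, and Mvk (red) at 1.89.

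Among the mevalonate steps, Hmgcs1, the cytosolic HMG-CoA synthase, was at 10.53, 10.57 and 10.93 in heterozygous replicates 1, 2 and 3, against 11.02, 10.75 and 10.41 in wild-type replicates 1, 2 and 3. Its groups overlapped, with a log2 change of -0.05 and an interval from -0.55 to 0.45. This brightest Hmgcs1 probe set is of a kind that can cross-hybridize, and the brightest one of another kind gave -0.34 without overlap. Pmvk, the phosphomevalonate kinase that follows Mvk, stood at -0.20. Mvd, the decarboxylase that makes isopentenyl diphosphate, was at 7.03, 7.16 and 7.27 in heterozygous arrays and at 7.24, 7.60 and 7.82 in wild-type arrays. Only the highest heterozygous value reached the wild-type range, by a small margin (log2 change -0.40 ± 0.18, the standard error, and adjusted p = 0.809 with limma). Idi1, the isomerase of isopentenyl diphosphate, stood at -0.27 and Fdps, the farnesyl diphosphate synthase, at 0.09.

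Mvk phosphorylates mevalonate and is held back in the cell by its downstream products. Its brighter probe set was at 7.97, 7.65 and 7.37 in heterozygous replicates 1, 2 and 3, against 5.85, 5.53 and 5.93 in wild-type replicates 1, 2 and 3. All heterozygous values lay above all wild-type values, with a gap of 1.43 between the groups and ranges of 0.61 within the heterozygous and 0.40 within the wild-type arrays. As deposited, before normalisation, the intensities were 243.0, 205.9 and 174.0 in heterozygous and 54.6, 46.2 and 61.4 in wild-type arrays.

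The Mvk means were 7.66 ± 0.30 in heterozygous and 5.77 ± 0.21 in wild-type oviducts (SD, n = 3 each), a 3.71-fold difference with an interval from 2.62-fold to 5.24-fold. The log2 change was 1.89 with a standard error of 0.20. With limma the p was 9.29e-05, which ranked 9 of all genes, but the adjusted p was 0.181. The exact permutation test gave p = 0.1, the smallest that 3 arrays against 3 allow. By size the change ranked 88 among 18193 genes. In the wild-type arrays this probe set was dimmer than the median one, and without detection calls it is unknown whether it was above background there.

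The dimmer Mvk probe set told the genotypes apart less clearly. It was at 5.13, 6.08 and 6.02 in heterozygous replicates 1, 2 and 3, against 5.87, 4.38 and 4.31 in wild-type replicates 1, 2 and 3. Wild-type replicate 1 lay above heterozygous replicate 1, so the groups overlapped. The log2 change of 0.90 had a standard error of 0.51 and an interval from -0.36 to 2.15 (adjusted p = 0.933 over probe sets with limma). With both probe sets averaged, Mvk stood at 1.39 (adjusted p = 0.536 with limma).

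The Mvk difference at the brighter probe set was 1.66 within the 3 arrays of lower Actb ratio (heterozygous replicates 2 and 3, wild-type replicate 1) and 2.24 within the 3 of higher ratio. At the dimmer probe set it was 0.19 and 0.79 in these classes. With 1 array left out at a time, the brighter probe set gave from 1.74 (without heterozygous replicate 1) to 2.05 (without heterozygous replicate 3). Without wild-type replicate 3 it gave 1.98. The dimmer probe set gave from 0.63 (without wild-type replicate 3) to 1.41 (without wild-type replicate 1). With the Actb ratio as a covariate, the brighter probe set gave 2.00 and the dimmer 0.41.

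**Figure D3:**
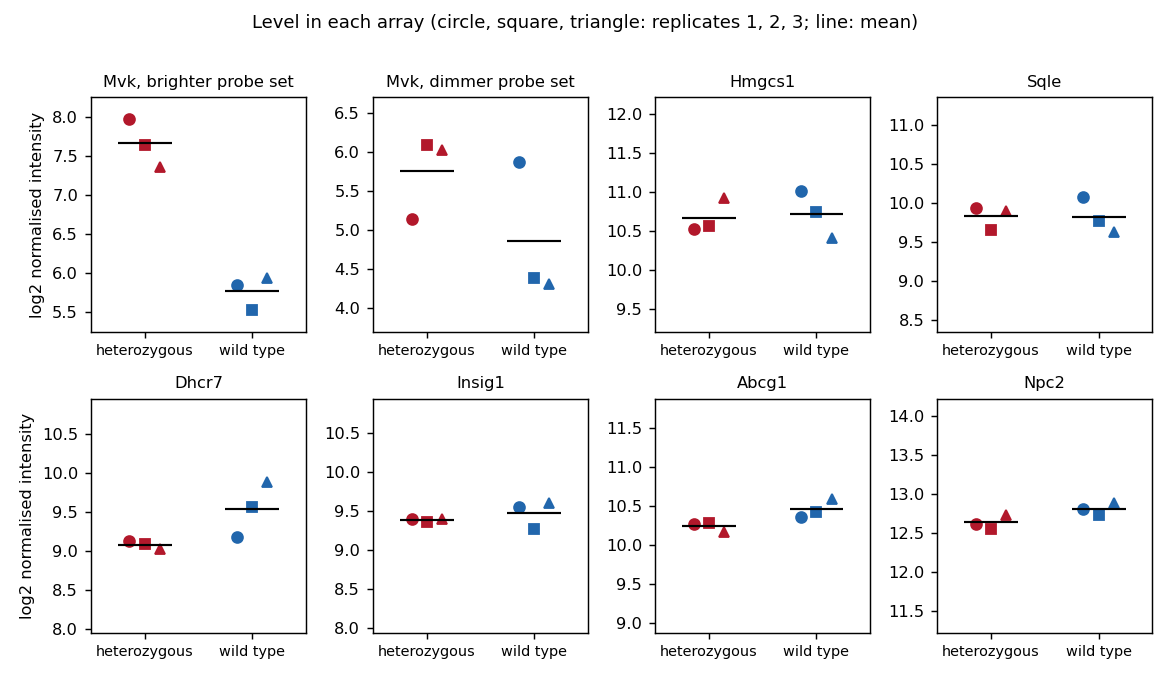
Level in each array (log2 normalised intensity, y axis, each panel spanning 3 units) for both Mvk probe sets and 6 other genes, heterozygous arrays in red and wild-type arrays in blue, with lines at the means. The groups are apart by 1.43 at the brighter Mvk probe set and overlap at the dimmer one.

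Mvk shares its promoter region with Mmab, a cobalamin adenosyltransferase gene that runs the other way. In RefSeq on GRCm38.p6 only 190 bases separate their starts, and this stretch is shown because it is the only sequence between Mvk and its neighbour. The capitals mark the CCAAT letters of the NF-Y box, on either strand (ATTGG on the other). NF-Y is a factor that works beside SREBP at many promoters of the pathway. The sequence, on the plus strand at chr5:114444074-114444263, reads
Mvk: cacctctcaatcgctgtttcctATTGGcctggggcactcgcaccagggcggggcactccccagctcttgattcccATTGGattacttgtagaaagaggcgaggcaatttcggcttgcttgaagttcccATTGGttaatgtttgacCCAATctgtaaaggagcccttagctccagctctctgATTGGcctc
It holds 5 such boxes.

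For Mmab the difference was small and ran the other way. Its brightest probe set was at 7.70, 7.84 and 7.75 in heterozygous replicates 1, 2 and 3, against 7.84, 7.94 and 7.84 in wild-type replicates 1, 2 and 3. The groups did not overlap, though the highest heterozygous value was 7.837 and the lowest wild-type value 7.839. The log2 change was -0.11 with an interval from -0.43 to 0.21, and the 3 dimmer probe sets of Mmab gave 0.24, 0.28 and 0.06. Mmab was looked up for its position after the Mvk value was known.

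Promoter windows from 250 bases before to 50 after a start were at hand for 25 of the 31 listed genes in RefSeq, and a gene with several windows was counted once if any held the motif, on either strand. The CCAAT box was present in 20 of these 25 genes (80.0%) and in 14 of 15 synthesis enzymes (93.3%), beside 42.3% of 17492 protein-coding genes. The letters TCACNCCAC, a form of the sterol regulatory element to which SREBP binds, were present in Hmgcs1 alone, 1 of 25 genes (4.0%), beside 1.41% of protein-coding genes. No window of the 25 genes, nor any of the protein-coding genes, held the LXR motif searched, a direct repeat of AGGTCA with 4 bases between. The zinc finger letters GCGNGGGNG, of a kind bound by EGR factors and WT1, were present in 4 of 25 genes (16%), namely Dhcr7, Scap, Insig1 and Insig2, beside 17.7% of protein-coding genes. The windows of Mvk had none of the last 3 motifs. Such matches describe the letters and do not show binding.

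The Hmgcs1 stretch is shown as the one promoter with both sterol motifs, and the Dhcr7 stretch as the one with zinc finger letters at 2 places side by side. Both genes are on the plus strand, at chr13:119690106-119690345 and chr7:143830019-143830048. Capitals mark the sterol element TCACCCCAC and the CCAAT boxes in Hmgcs1, and the GCGNGGGNG matches in Dhcr7.
Hmgcs1: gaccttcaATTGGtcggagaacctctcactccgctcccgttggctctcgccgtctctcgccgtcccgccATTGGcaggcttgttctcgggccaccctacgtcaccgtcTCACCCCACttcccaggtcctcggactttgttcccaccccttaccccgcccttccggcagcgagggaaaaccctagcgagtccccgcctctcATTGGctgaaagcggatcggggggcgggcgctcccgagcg
Dhcr7: agggGCGTGGGCGggGCGTGGGTGgggcgg
The Dhcr7 letters lie before the most downstream of 3 annotated starts of that gene.

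Among the sterol steps, 6 of 11 enzymes were nominally higher and 5 lower, with a median of 0.01. Sqle, the squalene epoxidase and a rate-controlling enzyme, was at 9.93, 9.66 and 9.90 in heterozygous replicates 1, 2 and 3, against 10.07, 9.77 and 9.63 in wild-type replicates 1, 2 and 3. The values were interleaved, with a log2 change of 0.01 and an interval from -0.40 to 0.41. Fdft1, the squalene synthase at the head of this branch, stood at -0.20 at a probe set of the cross-hybridizing kind and Lss, which closes squalene oxide into lanosterol, at -0.09.

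The steps after lanosterol spread to both sides. Cyp51, the lanosterol 14-demethylase, was at 7.73, 7.67 and 7.60 in heterozygous arrays and at 7.92, 7.26 and 6.85 in wild-type arrays, so its change of 0.32 came with an SD of 0.07 in heterozygous and 0.54 in wild-type arrays. The Cyp51 change was 0.075 when wild-type replicate 3 was left out and 0.60 when wild-type replicate 1 was left out. Msmo1, the methylsterol monooxygenase, was at 0.14, Nsdhl, a sterol dehydrogenase, at 0.06 and Hsd17b7, a ketosteroid reductase, at 0.25. Tm7sf2, a sterol 14-reductase, was at -0.11. Ebp, the sterol isomerase, was at 0.09 and Sc5d, the lathosterol desaturase, at -0.01.

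Dhcr7, the reductase that turns 7-dehydrocholesterol into cholesterol, was lower in every heterozygous array. It was at 9.13, 9.08 and 9.02 in heterozygous replicates 1, 2 and 3, against 9.18, 9.56 and 9.88 in wild-type replicates 1, 2 and 3. The groups did not overlap, though the nearest values were 9.13 and 9.18. The log2 change was -0.46 with a standard error of 0.20 and an interval from -0.95 to 0.02 (adjusted p = 0.798 with limma). Wild-type replicate 3, with the highest Actb ratio, was also the highest for Dhcr7, and without it the change was -0.29. Within the arrays of lower Actb ratio the Dhcr7 change was -0.13, and within those of higher ratio -0.59. The lower class has wild-type replicate 1 alone for its genotype, and the higher class heterozygous replicate 1 alone. Ratios in the higher class ran from 2.40 to 5.90. What part the Actb ratio has in the Dhcr7 change was not tested.

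Of the 5 controls of SREBP, 3 were nominally higher and 2 lower, with a median of 0.01. Srebf2, the main activator of the pathway, was at 9.18, 9.30 and 9.02 in heterozygous replicates 1, 2 and 3, against 8.38, 9.40 and 9.19 in wild-type replicates 1, 2 and 3. Only wild-type replicate 1 lay below the heterozygous range, and the log2 change of 0.18 turned to -0.13 without that array. Srebf1, which drives fatty acid genes more than sterol genes and is itself an LXR target, stood at 0.01. Insig1, an SREBP target that retains Scap when sterol is high, was at 9.39, 9.36 and 9.40 in heterozygous arrays and at 9.56, 9.27 and 9.60 in wild-type arrays. Its heterozygous values lay inside the wild-type range, with a log2 change of -0.09 and an interval from -0.42 to 0.24. Insig2, the second retention protein, stood at 0.17 and Scap at -0.24.

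On the export side, Nr1h3, the LXR-alpha receptor, stood at 0.08. Abca1, which loads cholesterol onto apolipoprotein A-I, was at 11.78, 11.96 and 11.83 in heterozygous replicates 1, 2 and 3, against 11.89, 11.69 and 11.55 in wild-type replicates 1, 2 and 3, a change of 0.15 with overlap. The dimmer Abca1 probe sets gave 0.89 and 1.55, both with overlap. Abcg1, which passes cholesterol to high density lipoprotein, was at 10.26, 10.28 and 10.17 in heterozygous arrays and at 10.36, 10.41 and 10.58 in wild-type arrays. Its groups did not overlap, with a log2 change of -0.22 and an interval from -0.51 to 0.08. The other Abcg1 probe set gave -0.26 with overlap. At their brightest probe sets the pumps thus had changes of opposite sign.

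Of the transport genes, Npc2, the soluble lysosomal carrier, was at 12.62, 12.56 and 12.73 in heterozygous replicates 1, 2 and 3, against 12.80, 12.73 and 12.89 in wild-type replicates 1, 2 and 3. The groups did not overlap, by the narrowest of margins, and the change was -0.17 with an interval from -0.46 to 0.12 (limma, adjusted p = 0.885). Npc1, the membrane partner that receives cholesterol from Npc2, stood at 0.19, the opposite sign. Stard4, a cytosolic sterol carrier and SREBP target, was at 8.28, 8.13 and 8.36 in heterozygous arrays and at 8.30, 8.56 and 8.86 in wild-type arrays. Only heterozygous replicate 3 reached into the wild-type range, and the change was -0.32 with an interval from -0.75 to 0.12.

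Probe sets of 1 gene did not always agree in sign. Of the 18 genes with several probe sets, 10 had all changes on one side of 0 and 8 did not. The groups did not overlap at 10 of 61 probe sets, 2 higher and 8 lower, or 16.4%, beside 10.5% of all probe sets, but these share target genes. Fdft1 had all 4 probe sets lower, 2 of them without overlap, at -0.21 and, for a dim probe set, -1.23. Mvd had both lower, and the dimmer gave -0.80 without overlap, with 6.80, 6.31 and 7.02 in heterozygous replicates 1, 2 and 3, against 7.25, 7.69 and 7.59 in wild-type replicates 1, 2 and 3 (adjusted p = 0.861 over probe sets with limma). For Hmgcs1 the 5 probe sets ran from -0.34, without overlap, to 0.25.

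The spread within the wild-type group was the larger one. The SD was larger in wild-type than in heterozygous arrays for 23 of 28 genes, beside 59.1% of all genes. The median SD was 0.11 in heterozygous and 0.21 in wild-type arrays. With wild-type replicate 3 left out, the SD was larger in wild-type arrays for 18 of 28 genes, beside 48.3% of all genes. The median SD in wild-type replicates 1 and 2 was 0.18. Wild-type replicate 3 was the highest of the 6 arrays for 10 genes and the lowest for 10 others, 71.4% in all, beside 46.3% over all genes. It was highest for Mvd, Idi1, Fdft1, Tm7sf2, Dhcr7, Scap, Insig1, Abcg1, Npc2 and Stard4, and lowest for Hmgcs1, Fdps, Sqle, Cyp51, Msmo1, Sc5d, Insig2, Nr1h3, Abca1 and Npc1. It took opposite places within 1 gene, at 11.09 and 9.85 for 2 Hmgcs1 probe sets where wild-type replicate 1 had 10.53 and 10.77. At the dimmest Abca1 probe set it had 2.58, where the other arrays had 5.57 to 7.75. What part the Actb ratio has in these values was not tested. The median over the 17 synthesis enzymes measured was -0.01 with all arrays. It was -0.11 when wild-type replicate 3 was left out, and 0.05 in the absence of wild-type replicate 1.

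**Figure D4:**
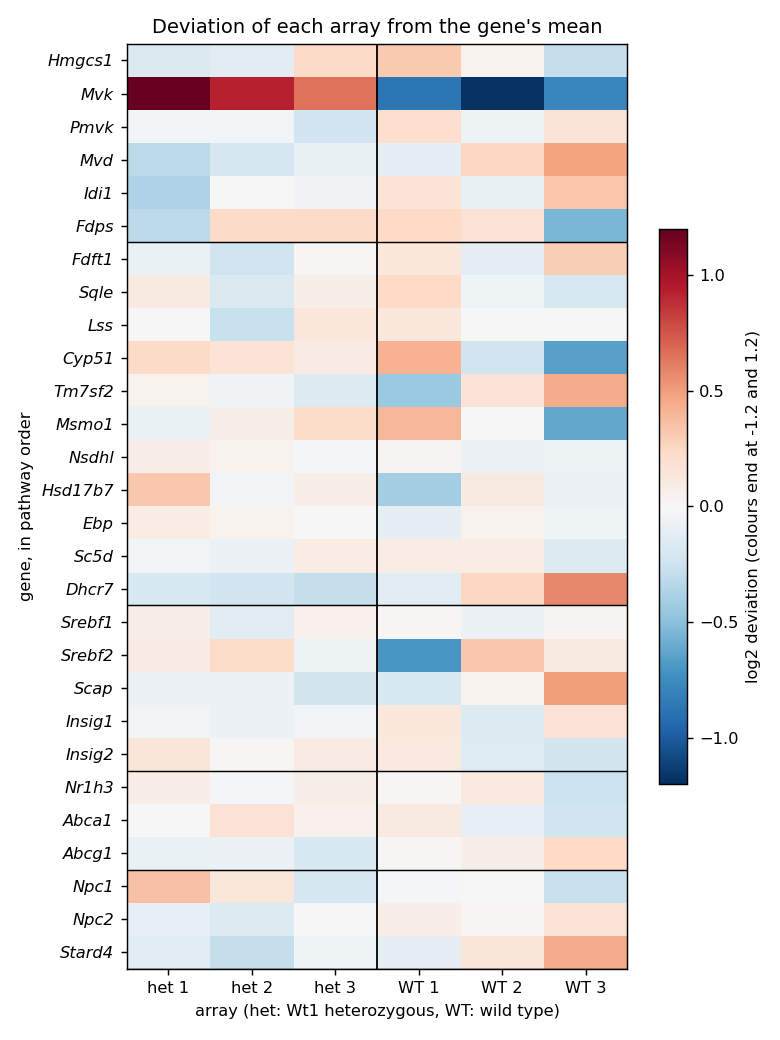
Deviation of each array from the mean of the gene over all 6 arrays (colour, log2 scale) for the 28 genes in pathway order, heterozygous arrays to the left of wild-type arrays. Mvk separates the genotypes, and wild-type replicate 3 holds the highest or lowest value of 20 genes.

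Genes around the pathway were counted in the same way, and none passed the adjusted threshold in limma. Of 9 further proteins that process SREBP or degrade enzymes of the pathway, 4 were nominally higher and 5 lower (median -0.03), with Rnf145 at -0.08 and Marchf6, the ligase that degrades squalene epoxidase, at -0.03. Of 9 genes of isoprenoid branches, 2 were higher and 7 lower (median -0.05), with Fnta, a prenyltransferase subunit, at -0.18 and Nus1, of dolichol synthesis, at -0.04. The 12 fatty acid synthesis targets of SREBP-1 were split evenly (median -0.00), with Scd2, a desaturase, at 0.11 and Gpam, an acyltransferase, at -0.05. None of the members of these 3 lists reached an unadjusted p of 0.05 in limma, beside 6.44% of all genes.

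Of 18 genes of sterol uptake and transfer, 8 were higher and 10 lower (median -0.05). Gramd1a, which carries plasma membrane cholesterol to the endoplasmic reticulum, was at 8.93, 9.22 and 9.0 in heterozygous replicates 1, 2 and 3, against 9.37, 9.61 and 9.62 in wild-type replicates 1, 2 and 3. The groups did not overlap, with a log2 change of -0.48 and a standard error of 0.14 (adjusted p = 0.631 with limma). Of 14 genes of oxysterol synthesis and LXR response, 10 were higher and 4 lower (median 0.06). Abcg5, a sterol half-transporter, stood at 1.38 at a dim level, with overlap (adjusted p = 0.760 with limma).

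In whole oviduct, fewer cells of a type and less RNA per cell cannot be told apart, and the summed markers of several cell types lay higher in heterozygous arrays, as Mvk did. Summed over 8 adipocyte markers, the normalised intensity was 1138 to 1899 in heterozygous and 760.3 to 823.6 in wild-type arrays, and 7 markers were nominally higher and 1 lower (median log2 change 0.69). Adipoq at 2.08, Fabp4 at 1.48 and Car3 at 2.22 had the largest changes of that list, Adipoq at a dim level. Cidec stood at 1.26 at a dim level, with overlap. The rest lay near 0, with Lep at -0.03, Retn at 0.04, Pck1 at 0.11 and Lipe at 0.12, so no marker lay near the median. Over 10 smooth muscle markers it was 37282 to 50766 in heterozygous and 32535 to 35513 in wild-type arrays. All 10 were nominally higher (median 0.63). Those with an unadjusted p under 0.05 in limma (6.44% of all genes had such a p) were Myh11, Actg2, Cnn1, Synpo2 and Casq2. They stood at 0.58 to 0.91, Casq2 at a dim level. Des stood at 0.72 with overlap. The brightest, Acta2 at 0.12 and Tagln at 0.26, weigh most in the sum. Over 10 endothelial markers it was 5748 to 6371 in heterozygous and 4765 to 5213 in wild-type arrays. Of these, 9 were nominally higher and 1 lower (median 0.29). Pecam1 at 0.83 and Sox18 at 0.36 had an unadjusted p under 0.05 in limma. Emcn stood at 0.56 and Tek at 0.40, both with overlap. Over 9 uterine epithelium markers it was 28691 to 29085 in heterozygous and 24169 to 26400 in wild-type arrays, with 7 nominally higher and 2 lower (median 0.19). Cxcl15 at 2.50 and Prss28 at 1.63 lay far above that median, Prss28 at a dim level. The brightest of the 9, Ltf at 0.21 and Calb1 at 0.14, weigh most in their sum. None of these markers passed the adjusted threshold in limma. Their part in the Mvk difference was not tested.

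Steroid-making ovary cells use much cholesterol, and the sum over 8 of their markers overlapped between the genotypes. It was 1478 to 1587 in heterozygous and 1331 to 1750 in wild-type arrays, with 2 markers nominally higher and 6 lower (median log2 change -0.28). Of the 8, 1 did not overlap between the genotypes, namely Foxl2, which was higher in heterozygous arrays (log2 change 0.36). Among all 18193 genes, 909 did not overlap with heterozygous arrays higher, and 1232 with heterozygous arrays lower. The probe sets of Cyp11a1, Hsd3b1, Cyp17a1, Fshr and Amh were dimmer than the median one. Over 10 macrophage markers the sum was 9759 to 13459 in heterozygous and 9434 to 12328 in wild-type arrays (median 0.08). For the oviduct epithelium it was 71652 to 76038 in heterozygous and 73259 to 75455 in wild-type arrays, also with overlap.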

How the data were processed

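For each probe set the authors deposited an intensity on a linear scale, scaled to a mean of 500.002 in every array after 2% of probe sets was trimmed at each end (found from the values). The tool for combining probes was not given in the sources used here. Per the labels' protocols, biotin-labelled cRNA was made from 1 µg of total RNA. Control probe sets (64) were left out, intensities under 1 were set to 1, and log2 values were quantile normalised. Among probe sets annotated with 1 gene alone, the brightest on average over the 6 arrays stood for that gene.

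Heterozygous minus wild type was fitted with limma 3.58.1 in R 4.3.3 (lmFit, eBayes) over 18193 genes and over 45037 probe sets, two-sided, and an adjusted p (Benjamini-Hochberg) under 0.05 was the threshold. Errors of changes are moderated standard errors. The number of arrays limits the precision. The fit was tested on simulated data.

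The members and lists were chosen with earlier results of these data known. All members are named. From the surrounding lists, genes with an unadjusted p under 0.05 are named, or the 2 brightest of a list that has none. Cell type markers with such a p are named, with others of their lists beside them. Alternatives were other scaling, log2 of the intensity plus 16, a filter on dim probe sets, trend and robust, array weights, the replicate block, other probe set rules, the Actb ratio as a covariate and leaving out each array.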

Additional observations from a re-analysis of the deposited data

How the results depend on the processing

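No cholesterol gene passed the threshold under any of the 15 alternatives in limma, and 1 to 5 of them had an unadjusted p under 0.05. The 5, without wild-type replicate 1, were Mvk, Mvd, Cyp51, Dhcr7 and Stard4, where 1905 of 18193 genes had such a p. Mvk was higher in heterozygous oviducts under each of the 14 alternatives that tested it (1.39 to 2.05, adjusted p = 0.0560 to 0.609). It was not tested with the filter on dim probe sets, which leaves it out. Of the 28 genes, 16 kept their sign under every alternative run and 12 did not, Hmgcs1, Sqle, Srebf2 and Insig1 among them. The median of the synthesis enzymes, -0.01, was -0.076 with array weights, -0.11 with the Actb ratio as a covariate and -0.11 to 0.052 when 1 array was left out. The median of the control and transport genes, 0.01, was -0.053 to 0.075 when 1 array was left out. The count of genes past the threshold was 3 with all arrays, 7 with array weights, 1 with the dim filter and 1 with trend and robust. It was 0 with the replicate block, without cross-hybridizing probe sets, with the Actb covariate and when any array was left out, where an unadjusted p under 0.05 was reached by 848 to 1905 genes. The deviations of same-numbered arrays from their group means correlated at -0.10, -0.03 and -0.08. With 3 arrays in each group, such values cannot decide whether same-numbered arrays share more than a number. The replicate block changed no call on a cholesterol gene (Mvk adjusted p = 0.609 with limma). The causes of these shifts were not tested.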
